A study of Mus musculus with 2 samples.

Results

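Intermediate filaments are the ropelike part of the cytoskeleton, built from coiled-coil proteins, and their makeup differs between cell types and changes as cells mature. In the developing brain, nestin and vimentin are known as the filament proteins of neural progenitors, alpha-internexin and the neurofilament proteins as those of neurons, and glial fibrillary acidic protein as that of astrocytes. Lamins are their nuclear relatives and line the inner face of the nuclear envelope: B-type lamins are made by nearly all cells, while A-type lamins are known to be more abundant in differentiated and mechanically stiff tissues. The 10 genes described here were chosen by name: Nes and Vim (progenitor filaments), Ina, Nefl, Nefm, Nefh and Prph (neuronal filaments), Gfap (astroglial filament), and Lmnb1 and Lmna (nuclear lamins). All 10 had an entry in both libraries, among 43346 mouse genes, 21474 of them protein-coding.

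RNA longer than 200 nucleotides was sequenced from the forebrain of B6NCrl mouse embryos at day 15.5, a stage when the cortex is producing neurons. The study had 1 group of healthy embryos, male and female together, with 2 biological replicates. Replicate 1 was a pool of 78 embryos and replicate 2 a pool of 62, and both libraries were made from 10 ng of RNA and carried spike-in transcripts. There was no treatment, mutant or other age, so the comparisons are between genes within this tissue and between the pools.

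Values are given for replicate 1 and then replicate 2. Levels are TPM, a gene's share of all transcripts in a library after correction for transcript length, so they can be set side by side between genes. The libraries held 38720511 and 35103430 estimated reads, of which 55892 and 52713 fell on the 10 genes. With 2 libraries of 1 group, a two-sided exact sign-flip test cannot give a p below 0.5, so no test was made. Differences were set against the spread between libraries (SD, n = 2), and 95% intervals (exact binomial) cover counting error only. In whole tissue, fewer cells of a type and less RNA per cell cannot be told apart.

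The label was checked against marker genes. The 4 forebrain markers summed to 469 and 480 TPM, while the 4 hindbrain and cord markers summed to 0.31 and 0.24 TPM, with En2 and Hoxb8 at 0. All 8 radial glia markers and all 9 neuron markers passed 1 TPM in both libraries, with sums of 1706 and 1559 TPM and of 4196 and 4104 TPM. Vessel and connective tissue cells were present too: the 6 endothelial markers summed to 140 and 149 TPM, the 6 pericyte markers to 48.0 and 47.6 TPM, and the 6 markers of mesenchyme and meninges to 181 and 188 TPM. Those cells are known to make vimentin and A-type lamin, and their part in the Vim and Lmna levels was not tested.

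The forms of 3 genes that the results turn on differ in short stretches of sequence, shown here from GENCODE M21 transcripts on mm10, 5′ to 3′ on the transcript strand. Lower case marks coding bases shared by the forms and capitals mark the first bases of the coding sequence particular to each. The Lmna forms part after 1704 shared coding bases. Lmna-201 encodes prelamin A (665 residues), the capitals lying at chr3:88482583-88482612. Lmna-203 encodes lamin C (574 residues) and ends with 18 bases of its own, at chr3:88483300-88483317. Both lie on the minus strand.
Lmna-201: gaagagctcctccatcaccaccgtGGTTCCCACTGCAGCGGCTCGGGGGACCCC
Lmna-203: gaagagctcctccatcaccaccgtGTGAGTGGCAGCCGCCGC

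A further form, Lmna-202, starts inside an intron and carries 20 coding bases of its own in its first exon (capitals, chr3:88493237-88493256, minus strand). It has the structure of lamin C2, a form known from germ cells.
Lmna-202: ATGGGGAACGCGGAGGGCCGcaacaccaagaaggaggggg

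The coding forms of Vim part near the 3′ end. Vim-201 (466 residues) goes on into the exon at chr2:13581613-13581642 (bases shown, plus strand). Vim-206 (427 residues) skips that exon and ends 8 coding bases later, at chr2:13582473-13582480.
Vim-201: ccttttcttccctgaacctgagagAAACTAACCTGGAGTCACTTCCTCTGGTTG
Vim-206: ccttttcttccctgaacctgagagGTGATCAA

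Nes-201 (1864 residues) holds 132 coding bases that Nes-203 (1820 residues) lacks, at chr3:87976581-87976712 on the plus strand (capitals, with 20 bases on either side). The stretch is 1 unit of a tandem repeat: 130 of its 132 bases are identical to the 132 bases that follow it, and 88 are identical to the 132 bases before it.
Nes-201: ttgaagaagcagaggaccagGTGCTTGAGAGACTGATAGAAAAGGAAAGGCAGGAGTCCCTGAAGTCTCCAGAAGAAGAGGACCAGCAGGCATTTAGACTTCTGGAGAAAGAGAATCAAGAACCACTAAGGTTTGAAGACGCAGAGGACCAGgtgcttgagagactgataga

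The 10 genes together made up 1028 and 1037 TPM. Progenitor filaments held 49.3% of this sum in both libraries, neuronal filaments 35.5 and 36.9%, and nuclear lamins 15.2 and 13.7%. Gfap held 0.0749 and 0.0704%. Of the 10 genes, 7 were at 1 TPM or more in both libraries, a level that 34.4% of all mouse genes and 60.6% of protein-coding genes reached. The same 7 were at 10 TPM or more, against 40.9% of protein-coding genes, and 3 (Vim, Ina and Lmnb1) were at 100 TPM or more, against 7.55%. The other 3 (Nefh, Prph and Gfap) lay near 1 TPM, so the levels fell into a group of 7 between 19.4 and 466 TPM and a group of 3 between 0.73 and 1.03 TPM.

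**Figure D1:**
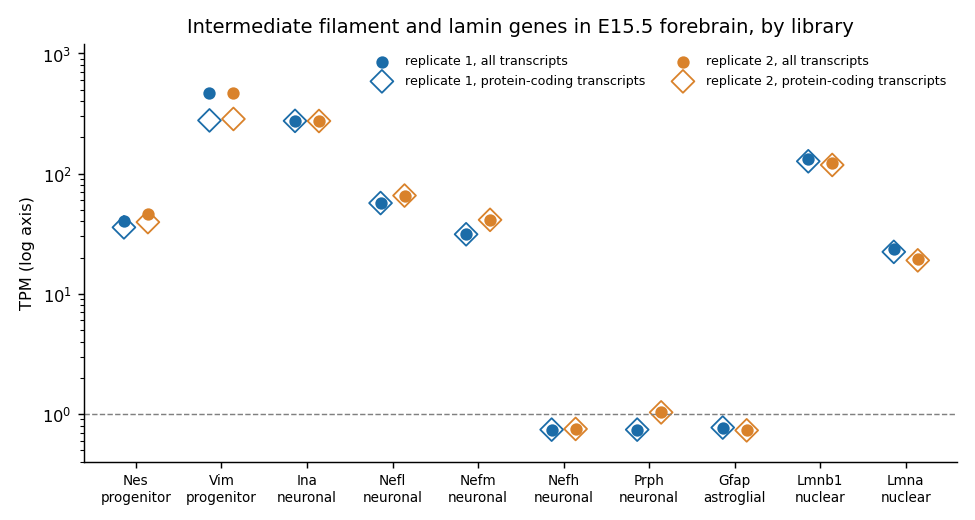
Level of each of the 10 genes in TPM (log axis) in replicate 1 and replicate 2, with all annotated transcripts (filled circles) and with protein-coding transcripts only (open diamonds). The dashed line is 1 TPM: Nefh, Prph and Gfap lie at it or just below, and Vim is the gene that moves most when noncoding transcripts are left out.

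Vim, which encodes vimentin, was the highest of the 10, at 466.3 and 465.9 TPM (466 ± 0.240, 14284 and 13319 reads), and ranked 225 among protein-coding genes by mean TPM. Nes, which encodes nestin, the large filament protein used as a marker of neural stem cells, was at 40.1 and 45.8 TPM (42.9 ± 4.00, 5098 and 5225 reads) and ranked 3981. Vim lay above Nes in both libraries, by 3.54 and 3.35 on the log2 scale (10.9-fold in the mean). The length correction bears on this ratio: Nes had an effective length of 5431 bases and Vim of 1309 bases, averaged over their transcripts, and without the correction the log2 ratio was 1.42.

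Much of the Vim level sat on a transcript that is not annotated as coding. Vim-203, a fragment of 535 bases annotated as a retained intron, was at 185.7 and 177.7 TPM, which is 39.8 and 38.1% of Vim's TPM by the deposited percentages. It had 13.3 and 12.5% of Vim's estimated reads, and 483 of its 535 bases also belong to exons of Vim-201, so its share rests on how shared reads were divided. The deposited posterior SD was 54.4 and 53.7 reads, for 1895 and 1666 estimated reads. The full-length Vim-201 was at 144.2 and 142.8 TPM and the shorter coding form Vim-206 at 133.0 and 142.3 TPM. The coding forms were thus close in level, and no order between them is shown, since the division of shared reads is uncertain. The deposited posterior SD was 207.1 and 185.9 reads for Vim-201, for 7066 and 6430 estimated reads. For Vim-206 it was 187.9 and 171.3 reads, for 5223 and 5134. Coding transcripts alone put Vim at 277 and 285 TPM.

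For Nes, the longer form Nes-201 was at 19.2 and 23.6 TPM and Nes-203, without the repeat unit, at 16.5 and 15.9 TPM. Reads from a unit that is nearly identical to its neighbour cannot be placed with certainty. The deposited posterior SD was 212.6 and 317.8 reads on Nes-201, for 2709 and 3063 estimated reads, so these levels are uncertain. The retained-intron transcript Nes-202 was at 4.39 and 6.26 TPM, 10.9 and 13.7% of the gene.

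**Figure D2:**
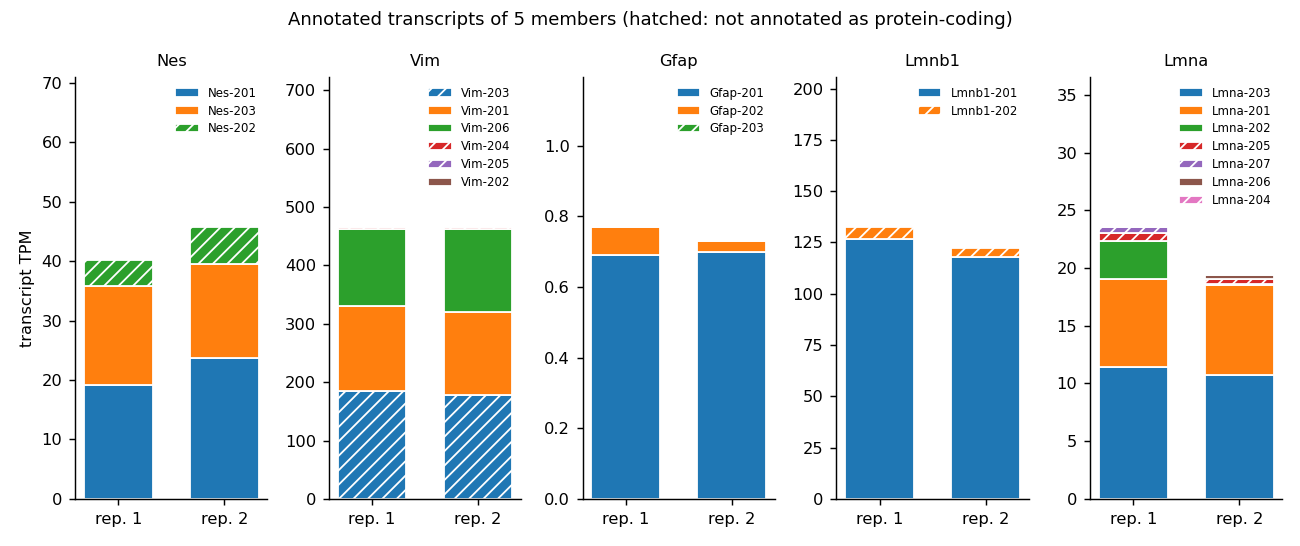
TPM of each annotated transcript of Nes, Vim, Gfap, Lmnb1 and Lmna, stacked, in replicate 1 and replicate 2. Each panel has its own axis, and hatched parts are transcripts not annotated as protein-coding, which are 40.5 and 38.8% of Vim and at most 13.7% of each other gene shown.

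Among the neuronal filaments, Ina was far ahead. Ina encodes alpha-internexin, known as the filament protein that appears earliest in developing central neurons. It was at 275.0 and 274.2 TPM (275 ± 0.523, 20213 and 18522 reads) and ranked 506. It made up 75.4 and 71.6% of the TPM of the 5 neuronal genes. Ina lay above the summed neurofilament triplet (Nefl, Nefm and Nefh) by 1.63 and 1.35 on the log2 scale, 2.81-fold in the mean. The first 456 bases of the Ina locus overlap Nt5c2 on the opposite strand (49.9 and 45.6 TPM). The labels do not say whether strand was used, so reads from the overlap cannot be told apart. The deposited posterior SD of the Ina reads was 16.8 and 15.7, against 20213 and 18522 estimated reads.

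The neurofilament triplet is made of a light, a medium and a heavy chain, of which the heavy chain is known to appear last as axons mature. Nefl, the light chain, was at 56.9 and 65.7 TPM (61.3 ± 6.21) and made up 15.6 and 17.2% of the neuronal filaments. Nefm, the medium chain, was at 31.3 and 41.3 TPM (36.3 ± 7.05) and made up 8.58 and 10.8%. Nefh, the heavy chain, was at 0.74 and 0.75 TPM, from 67 and 63 reads. The chains thus stood in the order light, medium, heavy in both libraries. Nefl was above Nefm by 0.86 and 0.67 on the log2 scale (1.70-fold), and Nefm above Nefh by 5.40 and 5.78 (48.2-fold).

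Nefl and Nefm are neighbours on chromosome 14, on opposite strands, and their annotated spans overlap. The overlap comes from Nefm-202 alone, which shares 1108 exon bases with Nefl and was at 1.71 and 1.85 TPM. The main form, Nefm-201, shares none and was at 29.6 and 39.4 TPM, so 94.6 and 95.5% of the Nefm level lies outside the overlap. The deposited posterior SD of the Nefl reads was 12.2 and 11.6, against 4369 and 4634 estimated reads.

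Prph encodes peripherin, the filament protein of peripheral sensory neurons and of motor neurons. It was at 0.74 and 1.03 TPM, from 29 and 37 reads, and lay below Ina by a wide margin: Ina over Prph was 8.54 and 8.06 on the log2 scale, 315-fold in the mean. Of 7 marker genes of peripheral sensory and motor neurons, 1 (Pou4f1, at 2.11 and 2.54 TPM, known also from neurons of the central nervous system) passed 1 TPM in both libraries, their sum was 3.87 and 4.14 TPM, and Mnx1 was at 0. All Prph reads were given to Prph-201, although the posterior mean put Prph-202, which has 96 more coding bases, at 0.28 TPM in both libraries.

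Gfap, the defining filament of mature astrocytes, was at 0.77 and 0.73 TPM (0.750 ± 0.0283), from 46 and 40 reads. Progenitor filaments exceeded it by 9.36 and 9.45 on the log2 scale (679-fold) and neuronal filaments by 8.89 and 9.04 (498-fold). The main form held nearly all of it, with Gfap-201 (the alpha form) at 0.69 and 0.70 TPM and Gfap-202, which encodes another tail, at 0.08 and 0.03 TPM, the last from under 5 estimated reads in each library. The other astrocyte markers were uneven. Aqp4, a water channel of mature astrocytes, was at 0.87 and 0.54 TPM and S100b at 0.86 and 0.77 TPM, both below 1 TPM like Gfap. The other 5, which radial glia are also known to express, lay higher, from Slc1a2 at 9.46 and 8.63 TPM to Aldoc at 138 and 146 TPM. Gfap lies within the span of a long noncoding RNA gene on the opposite strand, Gm26668 (1.01 and 1.42 TPM). Whether their exons overlap was not examined, and reads from any shared bases cannot be told apart here. The deposited posterior SD of the Gfap-201 reads was 1.72 and 1.37, against 41.3 and 38.3 estimated reads.

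Progenitor filaments summed to 506 and 512 TPM and neuronal filaments to 365 and 383 TPM. By all transcripts, the progenitor sum was higher by 0.47 and 0.42 on the log2 scale (0.45 ± 0.04, 1.36-fold). This order depends on Vim-203 and on length. With protein-coding transcripts only, the progenitor sum was 313 and 325 TPM against 365 and 383 TPM, lower by 1.17-fold (log2 ratio -0.22 and -0.24). By reads without a length correction the mean log2 ratio was -0.49. Vim over Ina, coding transcripts only, was 0.01 and 0.06 (0.03 ± 0.03), a difference about as large as the spread between libraries. No direction between the progenitor and the neuronal sums therefore holds under all 3 ways of counting.

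**Figure D3:**
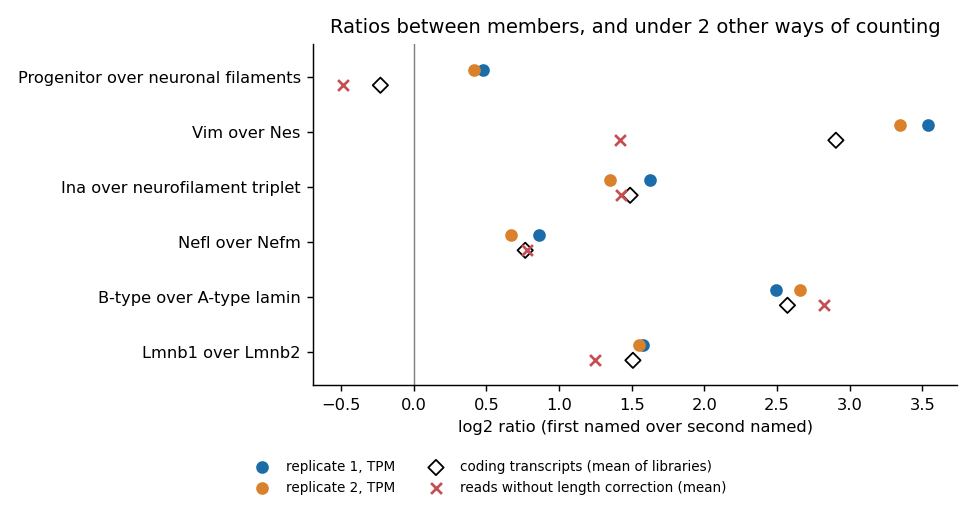
Log2 ratio of the first-named to the second-named genes in TPM for each replicate (filled circles), with the mean of the libraries for protein-coding transcripts only (open diamonds) and for reads without length correction (crosses). The ratio of progenitor to neuronal filaments lies on opposite sides of 0 depending on how it is counted, while the other 5 ratios shown stay above 0 in all 3.

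The lamina was dominated by B-type transcripts. Lmnb1, which encodes lamin B1, was at 132.6 and 122.3 TPM (127 ± 7.32, 8216 and 7018 reads) and ranked 1265. Lmna, which encodes lamins A and C, was at 23.6 and 19.4 TPM (21.5 ± 2.93, 1188 and 972 reads) and ranked 6420. Lmnb1 over Lmna was 2.49 and 2.66 on the log2 scale (2.57 ± 0.11, 5.96-fold). Lmnb2, the other B-type gene, was at 44.4 and 41.8 TPM, below Lmnb1 by 2.96-fold and above Lmna in both libraries. Of the TPM of these 3 genes, Lmnb1 held 66.1 and 66.6%, Lmnb2 22.1 and 22.8% and Lmna 11.7 and 10.6%.

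Lmna transcripts were divided between lamin C and prelamin A. Lmna-203, the lamin C form, was at 11.45 and 10.70 TPM, and Lmna-201, the prelamin A form, at 7.62 and 7.81 TPM. The lamin C form was higher by 0.59 and 0.45 on the log2 scale, 1.43-fold, with counting intervals of 0.41 to 0.76 and 0.27 to 0.64. These intervals leave out the uncertainty of dividing shared reads: the deposited posterior SD was 54.4 and 40.3 reads for Lmna-203 and 29.1 and 30.3 reads for Lmna-201. Estimated reads, without the length correction, were 515 and 442 for lamin C against 545 and 513 for prelamin A, so the direction turns when length is not considered (mean log2 ratio -0.15). The intronic-start form Lmna-202 was at 3.26 TPM in replicate 1 and 0.14 TPM in replicate 2. It is the Lmna transcript that differed most between the pools. Its posterior mean was 3.19 and 1.19 TPM, and the deposited posterior SD was 45.9 and 25.6 reads for 109.7 and 4.30 estimated reads.

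Prelamin A is known as a target of miR-9, a microRNA abundant in the brain, through the long 3′ end that lamin C transcripts lack. The mature miR-9-5p (RefSeq, GRCm38), encoded in the same form by Mir9-1, Mir9-2 and Mir9-3, is printed with its seed, bases 2 to 8, in capitals.
miR-9-5p: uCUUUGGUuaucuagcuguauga
The transcript strand was searched for ACCAAAG, which pairs with the whole seed, and for CCAAAG, its last 6 bases. The 3′ untranslated stretch of Lmna-201 is 926 bases long and held each once apart from the other. Counting from 1 at the base after the stop codon, the 7-base match begins at base 282 (window shown, chr3:88481785-88481807) and the 6-base match, followed by an A, at base 98 (window shown, chr3:88481970-88481992), both on the minus strand. The stretch of Lmna-203 is 92 bases long and held no 7-base match and 1 6-base match, at base 56 (window shown, chr3:88483235-88483257). Matched bases, and the A that follows, are in capitals.
Lmna-201, 7-base match: tgtatctgccttaaaACCAAAGg
Lmna-201, 6-base match: gagagcaggcctgaagCCAAAGA
Lmna-203, 6-base match: ctctcccacctccatgCCAAAGt
Of 1978 genes whose 3′ stretch is within 100 bases of 926, 154 (7.79%) hold ACCAAAG and 567 (28.7%) hold CCAAAG, so these letters are not rare.

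The miRNA itself is shorter than the RNA that was sequenced, and Mir9-2 and Mir9-3 were listed at 0 reads in both libraries, as genes of under 100 bases. The long noncoding RNAs that contain them were measured. C130071C03Rik, which spans Mir9-2, was at 93.7 and 90.6 TPM, and Mir9-3hg, which spans Mir9-3, at 62.1 and 64.1 TPM. Mir9-1 had no match among the measured genes. It lies within another long noncoding RNA gene, Gm3764, whose level was not looked up. No level of miR-9 follows from these values.

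In order of mean TPM the 10 genes ran Vim, Ina, Lmnb1, Nefl, Nes, Nefm, Lmna, Prph, Gfap and Nefh. In TPM of all transcripts, neighbours in this order were apart in both libraries, except that the values of Nes and Nefm, of Prph and Gfap, and of Gfap and Nefh overlapped between libraries. Nes over Nefm was 0.36 and 0.15 on the log2 scale, and with coding transcripts only it was 0.19 and -0.06, so their order is not settled. Vim over Ina was 1.70-fold by all transcripts and 1.02-fold by coding transcripts. Without length correction the order turned for Vim (14284 and 13319 reads) and Ina (20213 and 18522), and for Nefl (4369 and 4634) and Nes (5098 and 5225). Prph (29 and 37), Gfap (46 and 40) and Nefh (67 and 63) also ran in the reverse order by reads. The step from Lmna to Prph was the widest, 4.61 ± 0.53 on the log2 scale (24.5-fold).

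The labels describe the replicates as separate pools, and their reads differed by more than counting noise over all genes (chi-square per degree of freedom 5.83 over 19165 genes). The log2 ratio of replicate 1 over replicate 2, after TMM scaling of the reads, lay between -0.27 and 0.32 for the middle 90% of 14313 genes with 100 or more reads, and 12.8% of these genes were 0.25 or more apart. They were higher in replicate 1 for 6.97% of genes and lower there for 5.79%. Of the 10 filament and lamin genes, 8 had 100 or more reads and 1 of these, Nefm, was lower in replicate 1 by more than 0.25, at -0.42 (counting interval -0.50 to -0.34). Prph, with fewer reads, was at -0.49, with an interval of -1.25 to 0.25 that includes 0. Nefl, at -0.23, lay in the same direction as Nefm, as did Nes, at -0.18. Lmnb1, at 0.09, and Lmna, at 0.15, were higher in replicate 1 by TMM but lower (-0.11 and -0.05) by spike-in scaling, which shifted the median of all genes by -0.20. In deposited TPM, Lmna was at 0.28, past 0.25. Of its transcripts, Lmna-202, whose reads were divided with much uncertainty, differed most (3.26 and 0.14 TPM). Lmna-203 (11.45 and 10.70 TPM) and Lmna-201 (7.62 and 7.81 TPM) differed less. Vim (-0.04) and Ina (-0.02) were within 0.05 of 0 by TMM.

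**Figure D4:**
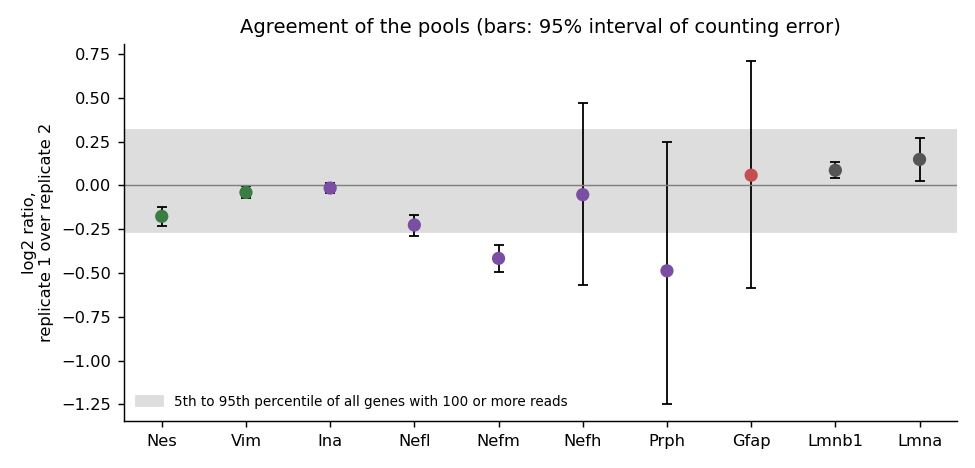
Log2 ratio of replicate 1 over replicate 2 for each gene after TMM scaling, with 95% counting intervals. Colours mark progenitor (green), neuronal (purple), astroglial (red) and nuclear (grey) genes, and the grey band is the 5th to 95th percentile of 14313 genes with 100 or more reads: Nefm and Prph lie outside it, Prph with a wide interval.

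Related genes put these levels in context, as counts and medians with no test. The median of the 10 genes was 5.31 on the log2(TPM + 0.1) scale, beside 2.28 over all protein-coding genes. Of 16 other cytoplasmic filament genes, 9 were at 1 TPM or more in both libraries, close to the 60.6% of protein-coding genes. At 10 TPM or more there were 2, against 40.9%, and the median of the list was 1.10, lower than both. The highest were Iffo1 (17.4 and 15.8 TPM), which encodes a protein related to intermediate filaments, Tchp (11.9 and 13.4 TPM), which encodes trichoplein, a keratin-binding protein, Krt10 (8.70 and 10.1 TPM) and Krt1 (5.83 and 5.27 TPM), keratins of the upper epidermis. Synm, whose product synemin joins vimentin filaments, was at 2.51 and 2.24 TPM, and Krt20, a gut keratin, was the lowest at 0 and 0.03 TPM. Summed markers of skin and muscle were 15.9 and 14.5 TPM, with Krt10 the larger part. Krt10, Krt5, Krt14 and Des stand both among these markers and among the filament genes above, so the sum is not separate from the keratin levels. Krt5 (0.12 and 0.11 TPM) and Krt14 (0.22 and 0.09 TPM) were low. The share of skin and muscle in the keratin levels was not tested.

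Of the linkers and handlers of filaments, 8 of 11 measured genes were at 1 TPM or more, a count close to the 60.6% of protein-coding genes, and their median was 4.27. Trim2, a ubiquitin ligase known to bind the neurofilament light chain in mice, led at 157.9 and 151.1 TPM. Kif5a, a kinesin that carries neurofilaments along axons, was at 64.9 and 60.9 TPM. The spectraplakins Macf1 (61.3 and 60.3 TPM) and Dst (30.3 and 30.3 TPM), which tie filaments to other parts of the cytoskeleton, followed, and Ppl, an epidermal linker, was lowest at 0.14 and 0.11 TPM. Eppk1 had no match.

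Of the partners of the lamina, 14 of 15 were at 1 TPM or more, beside the same 60.6%, with a median of 4.37. Banf1, which bridges DNA and the nuclear envelope, was at 369 and 388 TPM, above Lmnb1. Tmpo, which encodes a group of lamina-associated polypeptides, was at 124.6 and 121.6 TPM, close to Lmnb1. Syne2, which links the nucleus to the cytoskeleton and is known to be needed for nuclear movement in cortical progenitors and neurons in mice, was at 95.5 and 95.8 TPM, and Tor1aip2, an activator of torsin, at 60.7 and 57.4 TPM. Syne3 was lowest, at 0.09 and 0.02 TPM. All 6 lamin processing genes passed 10 TPM in both libraries, a level that 40.9% of protein-coding genes reached. The 6 had a median of 4.96. They were led by Narf (84.3 and 68.6 TPM), whose product is known to bind prelamin A in human cells, and Fnta (60.8 and 57.4 TPM), a farnesyltransferase subunit, ahead of Rce1 (35.5 and 33.1 TPM) and Fntb (27.5 and 28.9 TPM). Icmt, which methylates the end of farnesylated proteins, was lowest at 15.4 and 14.5 TPM.

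Kinases known to phosphorylate filament or lamin proteins, listed together with the activator gene Cdk5r1, had the highest median of the lists, 6.35. Of these 9 genes, 8 were at 10 TPM or more in both libraries, against 40.9% of protein-coding genes. Cdk1, which phosphorylates vimentin, nestin and lamins at mitosis, was at 147 and 170 TPM. Gsk3b, a kinase known to phosphorylate neurofilaments, was at 135.0 and 135.0 TPM, and Cdk5r1, the activator of the neuronal kinase Cdk5, at 99.5 and 86.5 TPM. Prkca was lowest, at 6.55 and 5.89 TPM.

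**Figure D5:**
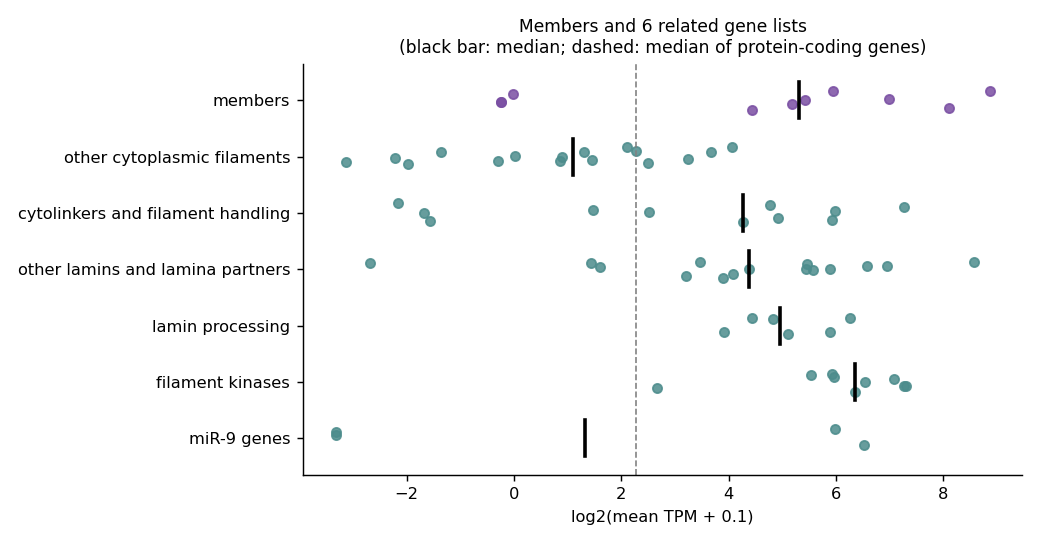
Mean TPM of the 2 libraries on the log2(TPM + 0.1) scale for each of the 10 genes (top row) and for 6 lists of related genes, with 1 point per gene and a black bar at each median. The dashed line is the median of protein-coding genes, 2.28: the median of other cytoplasmic filaments (1.10) lies below it, and the miR-9 median is not read, since 2 of its 4 genes are short miRNA genes at 0.

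Of the 48 genes of these lists with 100 or more reads, 5 (10.4%, beside 12.8% of all such genes) differed by 0.25 or more between the pools. They are named here after their values were seen. Krt18 (1.09) and Krt8 (1.00), keratins of simple epithelia that pair with each other, were higher in replicate 1, as were Iffo2 (0.29) and Lemd3 (0.26). Plk1, a mitotic kinase, was lower there (-0.31). Krt19, another keratin of simple epithelia, lay just under 100 reads, with 92 in replicate 1 and 6 in replicate 2, a log2 ratio of 3.69 (counting interval 2.62 to 5.28). Krt18 averaged 4.75 ± 2.47 TPM and Krt8 2.65 ± 1.29 TPM (SD, n = 2), both far below the filament genes Vim and Ina.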

How the data were processed

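Per the notes deposited with the files, reads were quantified on mm10 with GENCODE M4. Not given in the sources used here are the aligner, the quantifier and the use of strand. The deposited expected counts are estimated reads, which need not be whole. The deposited TPM corrects them for effective length and depth, the deposited FPKM per kilobase and library size, and the deposited percent gives each transcript's share of its gene's TPM. Posterior mean TPM and posterior SDs are also the authors' values.

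Genes were joined to symbols by identifier without version (42462 of 43346); 26248 transfer RNA entries and 96 spike-ins were left out. Transcript names, types, coordinates and sequences were taken from GENCODE M21 (also mm10, with other gene models than M4), and miR-9 from RefSeq. Sums and log2 ratios of TPM were computed per library. Replicate ratios used rounded counts, TMM factors (edgeR 4.0.16, R 4.3.3, genes with 10 or more summed reads) and 0.5 added reads; DESeq2 1.42.0 size factors and spike-in scaling were alternatives. The ratio step was tested on simulated data. Tables, intervals and plots were made in Python 3.11.15 with pandas 2.3.3, numpy 2.4.6, matplotlib 3.10.9 and scipy 1.17.1.

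The genes, lists and alternatives were chosen with earlier results of these data known. All 10 genes are named; of each list, the 4 highest and the lowest measured gene, Lmnb2 and Synm, except 1 gene that is not reported here. Protein sequences were not analysed here.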

Additional observations from a re-analysis of the deposited data

How the results depend on the processing

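No paired analysis was possible because there was 1 group. With 2 libraries each ratio rests on depth and on 1 difference between pools, and Nefh, Prph and Gfap rest on under 70 reads per library. Log2 ratios that turned were progenitor over neuronal filaments (-0.49 without length correction, -0.23 with coding transcripts only) and lamin C over lamin A (-0.15 without length correction); adding Lmna-202 to lamin C, a choice made after seeing the data, gave 0.71.

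The other ratios kept their direction under the alternatives run, though some moved by more than the spread between libraries. Without length correction, progenitor over Gfap was 8.79, neuronal over Gfap 9.28, Lmnb1 over Lmna 2.82, Vim over Nes 1.42, Ina over Prph 9.21, Lmnb1 over Lmnb2 1.24 and cytoplasmic over nuclear 2.40. With coding transcripts only, progenitor over Gfap was 8.73, Vim over Nes 2.90, Lmnb1 over Lmnb2 1.51 and cytoplasmic over nuclear 2.28 (2.57 with all transcripts). With posterior means, progenitor over Gfap was 9.02 and neuronal over Gfap 8.57. With 1 TPM added to each side, progenitor over Gfap was 8.19, neuronal over Gfap 7.74, Ina over Prph 7.20 and Nefm over Nefh 4.40.

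With spike-in scaling, which moves all genes alike, 5 genes rather than 2 differed by 0.25 or more between pools, beside 35.9% of all genes with 100 or more reads. With deposited TPM 3 did, Lmna (0.28) being the addition, beside 15.4%. Each of these counts includes Prph, which had under 100 reads, while the shares cover only genes with 100 or more. At 0.5 TPM all 10 genes counted as detected, and at 5 TPM 7 did. The share of all genes at these levels was not computed, so these counts are not read as a trait of the 10 genes. With 1 TPM added in place of 0.1, list medians were 1.61 for other cytoplasmic filaments, 4.34 for linkers, 4.43 for lamina partners, 5.003 for lamin processing, 6.37 for kinases and 3.001 for miR-9 genes. Without 1 library, the median of other cytoplasmic filaments was 0.84 to 1.54.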
